A study of Mus musculus with 102 samples.

Results

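Methylation was compared at day 4 between TTKO cells that had received Cre protein and TTKO cells that had received a mock treatment, with 3 replicates of each, in amplicon bisulfite sequencing. These are 6 of the 102 samples of the series, and the CpGs described are those with a level in all 6 samples, 366 CpGs in 56 amplicons out of 405 CpGs in 65 amplicons. The remaining 39 CpGs made up 9 whole amplicons, of which 3 were CTCF-bound, 4 NP-specific, 1 REST-bound and 1 another constitutive region. TTKO is a mouse embryonic stem cell (ESC) line with CRISPR mutations in the catalytic exons of Tet1, Tet2 and Tet3, taken from a single clone of a C57BL6/J line in which both alleles of Dnmt3a and Dnmt3b carry loxP sites around catalytic exons. The Cre group, labelled as catalytic dead for Dnmt3a/3b, was transduced with Cre protein, and the mock group, labelled as intact, received the buffer of the protein. Both groups therefore carry the Tet mutations, and they differ in the treatment that removes the Dnmt3a/3b exons. Cells were plated on feeders at transduction and were moved to feeder-free plates 1 day later, and the study calls its replicates biological without the labels saying whether they were separate cultures, so p-values measure the spread between these samples. Alleles and proteins are lost gradually after transduction, and the extent of deletion at day 4 was not analysed here. Day 4 is the earliest time after transduction in the series, so the comparison asks which sites lose methylation first.

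DNMT3A and DNMT3B place methyl groups on unmethylated CpGs (de novo methylation), DNMT1 copies methylation to the new strand after replication, and the TET enzymes oxidise methylcytosine so that it can be removed. In ESCs most CpGs are highly methylated (fully methylated regions, FMRs), CpG-rich promoters are unmethylated (UMRs), and distal regulatory elements bound by transcription factors are partly methylated (low-methylated regions, LMRs). REST is a repressor of neuronal genes and CTCF an architectural protein, and both keep the CpGs around their sites low in methylation. ES-specific LMRs and NP-specific LMRs are LMRs of stem cells and of neuronal progenitors, and the other constitutive LMRs are LMRs that neither factor name labels.

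Amplicons on which the results turn are given here as the mm9 sequence (NCBIM37) of the plus strand, from 15 bases before the first to 15 bases after the last measured CpG, with the measured CpGs in capitals. Amplicon names are shortened to their number, so that REST61 is the deposited Constitutive_LMR-REST61 and ES27 is ES-specific_LMR27. REST61, REST75 and REST85 are REST-bound, ES27 is ES-specific, and LMR24 is another constitutive LMR, all with every Cre sample below every mock sample, and ES28 is shown as an ES-specific region that stayed near full methylation.
REST61 (chr4:153281744-153282023): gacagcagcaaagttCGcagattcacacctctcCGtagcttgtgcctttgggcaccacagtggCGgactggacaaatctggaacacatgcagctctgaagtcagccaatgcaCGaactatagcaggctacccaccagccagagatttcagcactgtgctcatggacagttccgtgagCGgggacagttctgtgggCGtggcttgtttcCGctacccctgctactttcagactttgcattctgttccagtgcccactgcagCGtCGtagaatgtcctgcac
REST75 (chr5:150291050-150291282): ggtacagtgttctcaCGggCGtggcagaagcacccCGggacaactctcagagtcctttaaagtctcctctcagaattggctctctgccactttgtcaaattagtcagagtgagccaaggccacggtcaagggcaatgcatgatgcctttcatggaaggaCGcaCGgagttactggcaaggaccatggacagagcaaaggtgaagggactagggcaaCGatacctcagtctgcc
REST85 (chr19:54250325-54250455): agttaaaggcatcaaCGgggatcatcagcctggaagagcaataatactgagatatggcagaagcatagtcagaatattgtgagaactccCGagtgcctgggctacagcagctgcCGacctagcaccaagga
ES27 (chr7:133835961-133836203): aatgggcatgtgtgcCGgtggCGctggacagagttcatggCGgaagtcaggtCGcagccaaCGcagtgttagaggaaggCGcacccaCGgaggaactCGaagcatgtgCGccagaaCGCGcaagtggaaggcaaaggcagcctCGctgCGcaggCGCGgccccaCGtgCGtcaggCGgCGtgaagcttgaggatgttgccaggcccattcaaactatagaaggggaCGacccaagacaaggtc
LMR24 (chr3:65259446-65259597): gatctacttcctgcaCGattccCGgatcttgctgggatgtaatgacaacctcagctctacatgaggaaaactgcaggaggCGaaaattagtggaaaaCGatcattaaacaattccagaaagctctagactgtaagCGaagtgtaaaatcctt
ES28 (chr16:43609639-43609850): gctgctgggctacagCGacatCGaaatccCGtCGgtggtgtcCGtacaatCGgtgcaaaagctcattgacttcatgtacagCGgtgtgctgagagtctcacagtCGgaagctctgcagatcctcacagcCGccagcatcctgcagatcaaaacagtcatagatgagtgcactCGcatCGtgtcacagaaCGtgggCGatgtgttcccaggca

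In the GENCODE M1 annotation REST61 lay between genes, 49338 bases from A430005L14Rik, REST75 was 17870 bases from 4930588N13Rik and REST85 was 126868 bases from Adra2a, the alpha-2A adrenergic receptor gene. ES27 spanned coding exon and intron of Slx1b, a structure-specific endonuclease subunit, and ES28 a coding exon of the zinc finger repressor gene Zbtb20. LMR24 was intergenic, 51597 bases from 4931440P22Rik. Parts of the known REST element, the letters CAGCACC and GGACAG, were searched on both strands, and matches of the pair may share letters. Among stretches of at most 300 bases outside chromosome 18, CAGCACC was present in 5 of 13 REST-bound and 0 of 35 other amplicons, and GGACAG in 10 of 13 and 5 of 35. The letters were in 7.14% and 22.2%, and both together in 1.73%, of 32851 RefSeq promoter windows of 300 bases (GRCm38.p6). Both together were in 5 of the 13 REST-bound stretches, REST56, REST60, REST69, REST74 and REST77, and REST61 and REST75 held GGACAG alone and REST85 neither.

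Depth differed between the groups. Summed over CpGs, coverage was 1892557 to 2559243 reads in the Cre samples and 3483274 to 3956530 in the mock samples, with medians per CpG of 3026 to 4821 and 4645 to 8142 reads over the 366 CpGs. Over CpGs, which do not count as replicates of each other, Pearson's r between samples of a group was 0.971 to 0.990. Reads come from PCR and carry no molecular identifiers, and the median dispersion of the model was 59.4 times that of counting alone, so replicates set the precision.

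At day 4 the mean methylation level over the 366 CpGs was 36.1%, 37.1% and 38.1% in the 3 Cre samples and 39.1%, 41.4% and 41.9% in the 3 mock samples. Every Cre sample lay below every mock sample, and also below the 3 non-transduced day 0 samples at 40.7%, 40.0% and 39.8%. The means were 37.1% ± 0.977 and 40.8% ± 1.50 (SD, n = 3 each), a difference of -3.68 ± 1.03 percentage points (SE) and a loss of 9.02% of the mock level. The two-sided exact permutation test gave p = 0.1, the smallest that 3 samples against 3 can give. Mock and day 0 differed by 0.636 percentage points (exact permutation p = 0.5). The difference was -3.08 points over the 265 CpGs with at least 1000 reads in every sample, and the part of the depth gap between the groups in the result was not tested. These 265 CpGs kept all 82 UMR CpGs but 24 of the 64 ES-specific ones, so the mix of regions also changed.

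No single CpG passed the adjusted test, and most leaned to lower levels. In a quasi-binomial model of the methylated and unmethylated reads, with dispersion moderated by limma and p-values adjusted by the Benjamini-Hochberg method, 0 of 366 CpGs (0.0% less methylated) passed an adjusted p of 0.05 in either direction, and the smallest adjusted p was 0.217. At an unadjusted p under 0.05, 52 CpGs were less methylated (14.2%) and 3 more methylated (0.82%), and limma on log2 odds also called 0, with 35 and 8 at an unadjusted p under 0.05. The 52 became 25 without Cre replicate 1, 22 without Cre replicate 2 and 27 without mock replicate 3. The change in log2 odds after Cre was negative at 281 of the 366 CpGs, with a median of -0.46. All 3 Cre samples lay below all 3 mock samples at 73 CpGs (19.9%) and above them at 7 (1.91%). With the dispersion estimated over all TTKO samples of the time course, 8 CpGs (2.19%) were called less methylated and 0 more methylated, of which 3 were REST-bound, 1 ES-specific and 4 in other constitutive LMRs.

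**Figure D1:**
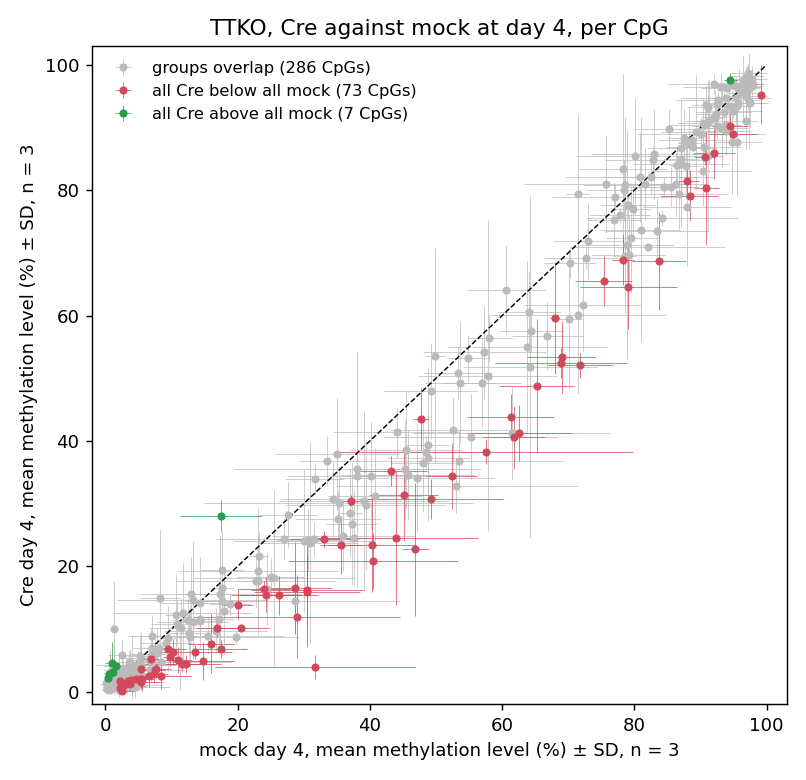
Mean methylation level of each of the 366 CpGs in mock (horizontal, %) and Cre samples (vertical, %) at day 4, with bars for the SD over 3 replicates and a dashed line of equal levels. The 73 CpGs with all Cre samples below all mock samples lie under the line over the whole range of levels, and of the 7 with the opposite order 5 lie near 0%.

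The difference varied with the level before transduction. CpGs were placed in classes by their mean in the day 0 samples, which are in neither group compared. CpGs with 30 to 50% at day 0 (42 CpGs) had the largest difference from mock of the classes in points with every CpG weighing the same, with 31.4%, 31.9% and 36.2% after Cre and 39.5%, 45.7% and 44.2% in mock. This is -9.99 ± 2.42 points (SE), and the groups did not overlap. CpGs with 50 to 70% (25 CpGs) differed by -8.79 ± 3.24 points, and this class had the larger difference with every amplicon weighing the same (-8.98 against -8.57) and without Cre replicate 2 (-9.49 against -9.35). Those with 10 to 30% (61 CpGs) differed by -5.61 ± 1.45 points, and the groups overlapped in neither class. At 70 to 90% (51 CpGs) the difference was -3.46 ± 1.91 points and at 90% and over (60 CpGs) -1.26 ± 0.980 points, and in both classes the groups overlapped. The latter was -0.684 points without Cre replicate 3, -1.99 without mock replicate 1 and -2.04 with every amplicon weighing the same. CpGs under 10% (127 CpGs) differed by -0.883 ± 0.321 points without overlap. With every amplicon weighing the same, the groups overlapped under 10% (exact permutation p = 0.3) and at 10 to 30% (p = 0.2). As a share of the mock level the loss was largest in the classes under 50%, with 25.5% ± 0.996 for CpGs under 10%, 27.3% ± 6.50 for 10 to 30%, 23.2% ± 6.18 for 30 to 50%. It was 14.0% ± 6.04 at 50 to 70%, 4.21% ± 2.92 at 70 to 90% and 1.34% ± 1.21 above that (SD over the 3 Cre samples). These SDs hold the mock mean fixed and leave out the spread of mock. Under 10% the mock samples were at 3.54%, 2.87% and 3.97%, so the loss there is less certain than its SD. Exact permutation p-values were 0.1 in the 4 classes under 70% (adjusted over the 6 classes, p = 0.15), 0.2 at 70 to 90% (0.24) and 0.3 at 90% and over (0.3).

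**Figure D2:**
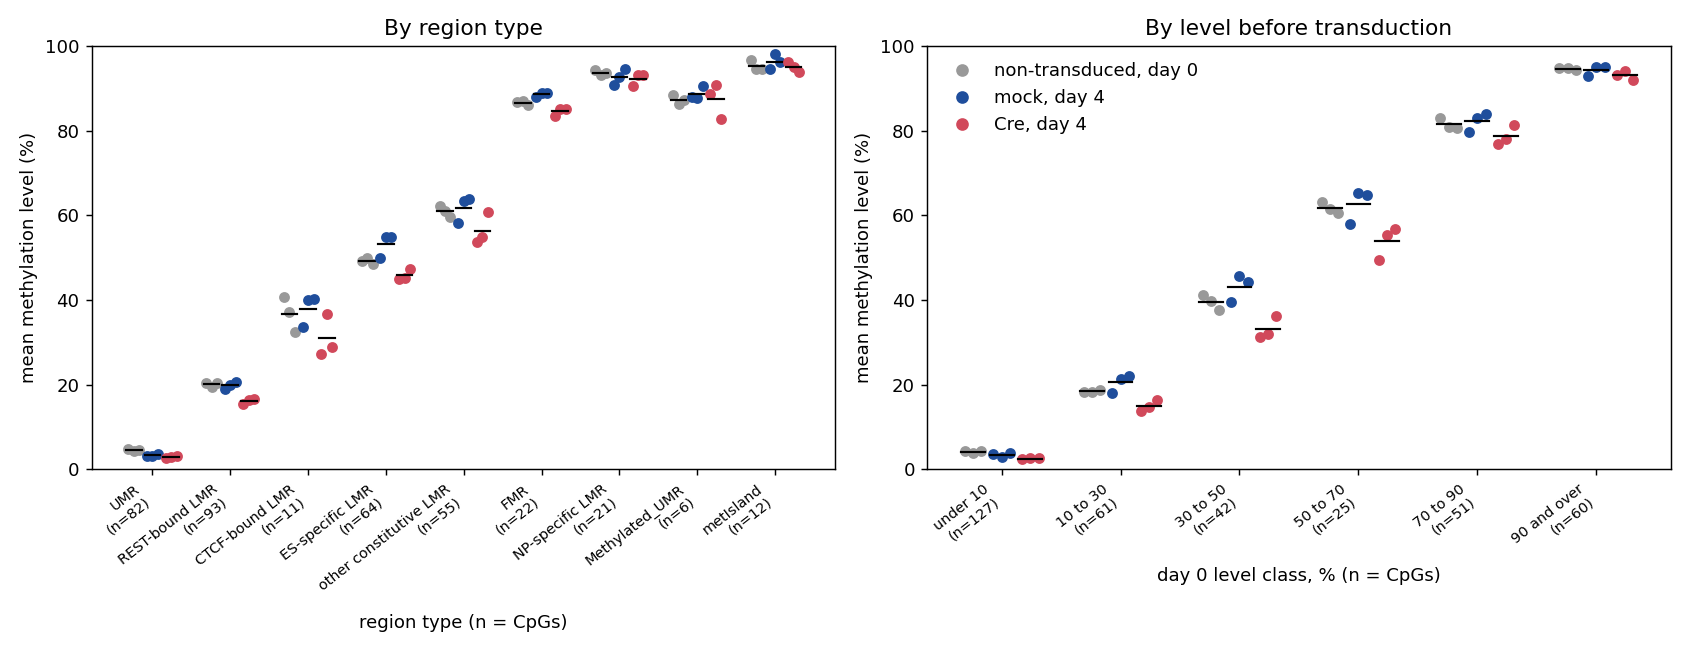
Mean methylation level (%) of each sample by region type (left) and by class of day 0 level (right), with 1 point per sample, black lines for the mean of 3 replicates, and grey, blue and red for day 0, mock and Cre. At 30 to 50% the 3 Cre samples lie between 31.4% and 36.2%, below the 3 mock samples, which start at 39.5%.

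Among region types, REST-bound LMRs, ES-specific LMRs and FMRs had all Cre samples below all mock samples. The 93 CpGs of 17 REST-bound LMRs were at 15.6%, 16.3% and 16.5% after Cre and 19.0%, 20.0% and 20.6% in mock. They lost 18.9% ± 2.54 of the mock level (SD, n = 3), a difference of -3.76 ± 0.538 points (SE) in level. The SDs of relative losses by region type are over the 3 Cre samples, with the mock mean held fixed. All 3 Cre samples were lower at 28 of the 93 CpGs (30.1%), against 73 of all 366 (19.9%).

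The 64 CpGs of 6 ES-specific LMRs were at 44.9%, 45.2% and 47.4% after Cre and 49.9%, 54.8% and 54.8% in mock, -7.34 ± 1.82 points and 13.8% ± 2.53 of the mock level. Mock lay 3.98 points above day 0 in these regions (exact permutation p = 0.2), and against day 0 the Cre samples differed by -3.36 points, still without overlap. Over the 24 of these CpGs with at least 1000 reads in every sample the difference was -2.83 points. These 24 lay in ES34 and the near fully methylated ES28, and none in ES27, ES30, ES32 or ES33. The 2 values therefore come from different amplicons and do not isolate depth.

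The 22 CpGs of 5 FMRs were at 83.5%, 85.0% and 85.1% after Cre and 88.0%, 88.9% and 88.9% in mock, a loss of 4.55% ± 1.02 of the mock level. The log2 odds ratio was negative at all 22 FMR CpGs, against 76.8% of all CpGs, and 4 (18.2%) had groups that did not overlap, against 19.9% of all CpGs. Against day 0 the FMR difference was -2.07 points instead of -4.03, still without overlap, and every mock sample lay above every day 0 sample (exact permutation p = 0.1).

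In the 55 CpGs of 12 other constitutive LMRs the difference was -5.39 ± 2.83 points, and Cre replicate 3 at 60.7% overlapped mock replicate 1 at 58.2%. With every amplicon weighing the same the groups did not overlap in this type, at -5.98 points (exact permutation p = 0.1). The 11 CTCF-bound CpGs in 2 amplicons differed by -6.89 ± 3.60 points with overlap. UMRs (82 CpGs in 9 amplicons) were at 2.94% ± 0.223 and 3.37% ± 0.287 with overlap, and mock itself differed from day 0 by -1.24 points there (p = 0.1, exact permutation). The highly methylated NP-specific LMRs (21 CpGs), the methylated UMR (6 CpGs, deposited as Methylated_UMR) and the methylated CpG island (12 CpGs, metIsland) differed by -0.377 ± 1.42, -1.37 ± 2.53 and -1.23 ± 1.26 points, all with overlap. The UMR difference was -0.265 points without mock replicate 3. That of the methylated island was -1.85 without Cre replicate 1, -0.594 without Cre replicate 3, -2.07 without mock replicate 1 and -0.294 without mock replicate 2. Against day 0 the differences were -1.67 points in UMRs, -1.34 in NP-specific LMRs and -0.161 in the methylated island, and over the 8 NP-specific CpGs with at least 1000 reads the difference from mock was -0.112. These 8 CpGs are those of the amplicon NP41 alone. Exact permutation p was 0.1 for the 3 region types without overlap, and adjusted over the 9 region types it was 0.3 for each of them, so none passed.

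CpGs of an amplicon share reads, so the read counts were also summed per amplicon. Of 56 amplicons 49 had a negative log2 odds ratio, and 19 (33.9%) had all Cre samples below all mock samples, with 0 in the opposite order. The quasi-binomial test with limma moderation called 0 amplicons, with a smallest adjusted p of 0.0955 and 17 (30.4%) at an unadjusted p under 0.05, all less methylated. The 17 became 6 without Cre replicate 1, 10 without Cre replicate 2 and 9 without mock replicate 3. Limma on log2 odds called 0, with 13 at an unadjusted p under 0.05. With dispersion over all TTKO samples 14 amplicons (25.0%) were called less methylated, 7 of them REST-bound, 4 other constitutive LMRs, 2 ES-specific and 1 a UMR. Limma on the mean level called REST85 and ES30.

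ES27 had the smallest p of the amplicons. Its mean over 20 CpGs was 18.3%, 19.1% and 18.4% after Cre and 23.1%, 25.0% and 30.0% in mock, without overlap (log2 odds ratio -0.73 ± 0.16 (SE), adjusted p = 0.0955 in the quasi-binomial test). All 20 CpGs had a negative log2 odds ratio, from -1.71 to -0.26, and 9 of them had groups that did not overlap, against 76.8% and 19.9% of all CpGs, in an amplicon picked for its p. Its day 0 mean was 21.4% ± 1.97. The coverage in Cre replicate 3 was low, with a median of 496 reads per CpG.

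REST85 had the largest relative loss of the REST-bound amplicons with at least 10% in mock. Its 3 CpGs averaged 5.81%, 5.52% and 6.82% after Cre and 10.1%, 11.8% and 12.3% in mock, a loss of 46.9% of the mock level, and at each of the 3 CpGs the groups did not overlap, against 19.9% of all CpGs, in an amplicon named for its loss. Its day 0 mean was 9.38% ± 1.46. REST60, 125676 bases from the otoraplin gene Otor, had the smallest, with 11.1%, 13.6% and 12.8% after Cre and 11.7%, 11.4% and 14.6% in mock, and 17.1% ± 2.30 at day 0, above both. REST-bound amplicons with at least 10% in mock therefore ranged from a loss of 46.9% to one of 0.691%.

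ES30 had the largest relative loss among ES-specific LMRs, 41.4%, with 21.5%, 16.7% and 17.5% after Cre and 33.3%, 33.8% and 27.9% in mock. Its 4 CpGs were each lower in all 3 Cre samples, against 19.9% of all CpGs, in an amplicon named for its loss. Its median coverage was 156 reads in Cre replicate 3 and 214 in mock replicate 2. ES28 had the smallest loss, 0.472%, at 95.0%, 96.8% and 91.9% after Cre and 94.8%, 94.0% and 96.1% in mock. ES32, in an intron of Cacng7, a calcium channel gamma subunit gene, had the largest difference of all amplicons in points, -18.2 ± 8.88 (SE). Its mock samples spread from 36.1% to 66.0%, and mock replicate 1 fell below Cre replicate 3 at 36.2%. The day 0 mean was 34.7% ± 0.679, near the Cre mean of 32.4% and below the mock mean of 50.6%.

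The 19 amplicons without overlap were 8 REST-bound, 4 other constitutive, 3 UMR, 2 ES-specific and 2 FMR amplicons. The REST-bound ones beside those above were REST56, REST68, REST69 and REST80, with losses of 12.9%, 19.1%, 43.7% and 32.3% of the mock level, and REST76. REST76 had 3.53% after Cre, 6.11% in mock, under the 10% set for relative losses, and 9.20% at day 0. REST80, in an intron of Armc8, held the CpG with the largest difference in points of the REST-bound CpGs, chosen after its values were seen, at 99464299 of chromosome 9. It had 3.41%, 6.02% and 2.29% after Cre and 22.6%, 49.1% and 23.3% in mock, against 23.7% at day 0. LMR24, LMR35 and LMR38 are neighbours on chromosome 3, between 65259446 and 65260065, and do not count as separate places in the genome. They lost 12.6%, 12.4% and 13.0%, and LMR23 lost 15.7%. The UMRs UMR11, UMR14 and UMR20 differed by -1.34, -0.536 and -2.51 percentage points, from mock levels under 10%.

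In the remaining region types the largest and smallest relative losses among amplicons with at least 10% in mock were 23.2% in LMR81 near Fggy and -2.69% (a gain) in LMR16 in an intron of Cradd for other constitutive LMRs, both with overlap. LMR81 was at 30.1% after Cre and 39.3% in mock but at 17.6% at day 0, so that against day 0 its Cre mean was higher. FMR6 and FMR8, both in introns of Traf3, a TNF receptor signalling adaptor, lost 7.90% with overlap and 3.64% without. CTCF53, near Lonrf2, lost 32.3% and CTCF52, near 2700060E02Rik, 15.5%, both with overlap. NP37 and NP41 lost 0.615% and 0.120%. No UMR reached 10% in mock. REST86, near the prolactin-releasing hormone receptor gene Prlhr, had the largest difference upward and was chosen after its values were seen, with 8.62%, 2.53% and 12.6% after Cre and 1.83%, 1.02% and 2.81% in mock and overlap.

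**Figure D3:**
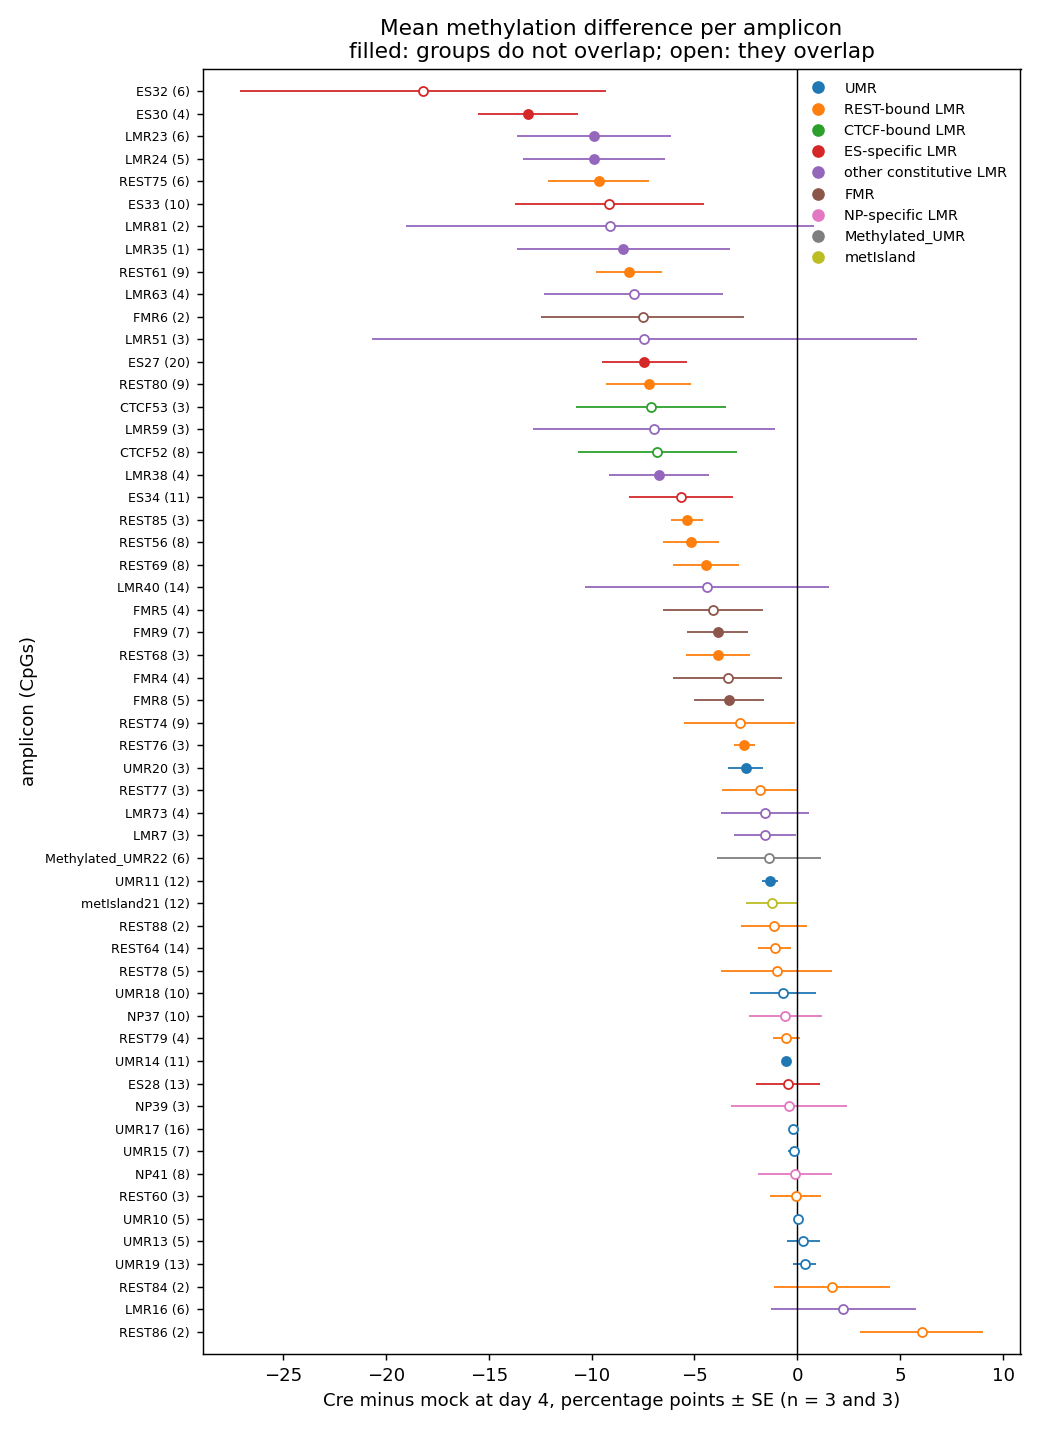
Cre minus mock difference in mean methylation (percentage points, horizontal, bars are SE over 3 and 3 samples) for each of the 56 amplicons (vertical, number of CpGs in brackets), coloured by region type, filled where the groups do not overlap. The 19 filled points all lie below 0, and REST86 stands highest at 6.05 points.

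The 10 CpGs with the smallest unadjusted p, none of which passed the adjusted test, lay in REST61 (2), ES27 (2), REST75, ES32, ES34, LMR23, LMR38 and UMR14. At 9 of the 10 all Cre samples were below all mock samples, against 19.9% of all CpGs, which the choice by p largely fixes. In REST61 the CpG at position 153281777 of chromosome 4 was at 42.0%, 44.7% and 35.0% after Cre and 56.5%, 63.6% and 65.3% in mock (log2 odds ratio -1.29 ± 0.29 (SE), unadjusted p = 0.00280, adjusted p = 0.217 in the quasi-binomial test with limma moderation). The CpG at 153282007 was at 54.3%, 50.4% and 51.5% after Cre and 67.1%, 77.0% and 71.2% in mock. Between them the amplicon was uneven. The CpG at 153282004, 3 bases from the latter, was at 34.0%, 26.2% and 43.2% after Cre and 50.9%, 26.3% and 43.1% in mock. Its read-weighted log2 odds ratio was -0.05, while its mean level differed by -5.65 points. Of the 9 REST61 CpGs 4 had groups that did not overlap, against 19.9% of all CpGs.

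In REST75 the first CpG, at 150291065 of chromosome 5, had 31.4%, 25.8% and 10.9% after Cre and 45.6%, 49.2% and 45.7% in mock (log2 odds ratio -1.58 ± 0.38 (SE), adjusted p = 0.217, quasi-binomial test). The CpG 4 bases further had 16.8%, 12.2% and 42.1% after Cre and 26.7%, 39.4% and 27.0% in mock, so that Cre replicate 3 was lowest of the Cre samples at the first of the pair and highest at the other. The last CpG of the amplicon, at 150291266, stayed at 90.4%, 83.9% and 86.0% after Cre and 81.8%, 92.2% and 87.3% in mock.

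The other leading CpGs were all lower in mean after Cre. The CpG with the smallest p, at 47210106 of chromosome 19 in a coding exon of Calhm2, a calcium homeostasis modulator gene, had 30.8%, 29.4% and 31.2% after Cre and 37.5%, 35.5% and 38.6% in mock. The small change had a small spread, with log2 odds ratio -0.44 ± 0.09 (SE) and adjusted p = 0.217 in the quasi-binomial test. Its unadjusted p was 0.240 by limma on log2 odds. With dispersion over all TTKO samples its SE was 0.19 and its unadjusted quasi-binomial p 0.0275. The REST75 CpG at 150291065 had 0.0221 and 3.74e-05 in these 2 fits, so the first rank holds in the main fit only. LMR23 at 107863525 of chromosome 13 had 46.1%, 40.7% and 37.0% after Cre and 56.1%, 71.2% and 60.2% in mock. LMR38 at 65259997 of chromosome 3 had 38.6%, 36.0% and 28.5% after Cre and 47.9%, 55.0% and 54.0% in mock.

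In ES27 the CpG at 133836117 of chromosome 7 had 7.35%, 5.22% and 7.83% after Cre and 17.5% ± 3.86 in mock (SD, n = 3). It was at 8.31% ± 2.24 at day 0 (SD, n = 3), nearer to the Cre than to the mock samples. The ES27 CpG at 133836187 had 15.3%, 11.2% and 22.7% after Cre and 20.4%, 25.2% and 27.5% in mock, with overlap, and its day 0 mean of 14.2% ± 1.17 was below the Cre mean of 16.4%. ES32 at 3349940 of chromosome 7 had 29.2%, 28.6% and 34.5% after Cre and 37.7%, 50.8% and 59.3% in mock.

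UMR14, in UTR and coding exon of B3galt4, a galactosyltransferase gene, held CpGs that differed from mock in both directions at low levels. The CpG at 34088082 of chromosome 17 had 3.55%, 2.69% and 4.30% after Cre and 6.34%, 7.07% and 9.21% in mock. The CpGs at 34088210 and 34088054, chosen after their values were seen as 2 of the 3 that were higher after Cre at an unadjusted p under 0.05, had 2.46%, 1.82% and 4.14% and 4.56%, 4.37% and 3.39% after Cre against 1.14%, 0.173% and 0.506% and 2.56%, 0.809% and 1.25% in mock. The third was NP41 at 78616679 of chromosome 7, with 96.4%, 98.3% and 98.1% after Cre and 95.5%, 93.5% and 94.6% in mock. Its day 0 mean was 96.6% ± 1.82 (SD, n = 3). The UMR14 CpGs at 34088210 and 34088054 were at 2.84% ± 2.25 and 6.95% ± 2.07 at day 0. Their Cre means of 2.80% and 4.11% were therefore not above day 0.

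The 8 CpGs called with dispersion over all TTKO samples included 3 of the 10, in REST75, REST61 and ES32. The others were 2 each in LMR24 and LMR63 and 1 in REST56, between -10.5 and -17.4 points from mock. At each of these others the mock mean was above the day 0 mean. In LMR63 the groups overlapped at 13522129 of chromosome 1, with means of 61.6% after Cre, 72.2% in mock and 65.3% at day 0. In LMR24 the CpG at 65259526 of chromosome 3 had 39.8%, 44.8% and 46.9% after Cre and 53.9%, 63.3% and 66.6% in mock, and the CpG at 65259468, in the same amplicon, had 79.6%, 85.2% and 81.6% after Cre and 75.3%, 82.6% and 89.7% in mock. The CpG at 65259526 was at 47.2%, 57.4% and 45.3% at day 0, which overlapped the Cre samples.

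At some partly methylated CpGs the read-weighted log2 odds ratio was near 0. The 5 CpGs with the smallest log2 odds ratio among the 109 with 20 to 80% at day 0 had log2 odds ratios between -0.09 and 0.06. Their intervals were wide, for example from -0.84 to 0.71 (95%) at 47210068 in ES34, which had 37.0%, 42.5% and 44.6% after Cre and 48.9%, 32.9% and 50.3% in mock. Of the 109 CpGs 100 had a negative log2 odds ratio, 33 had all Cre samples lower and 1 had all Cre samples higher, against 76.8%, 19.9% and 1.91% of all 366 CpGs.

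**Figure D4:**
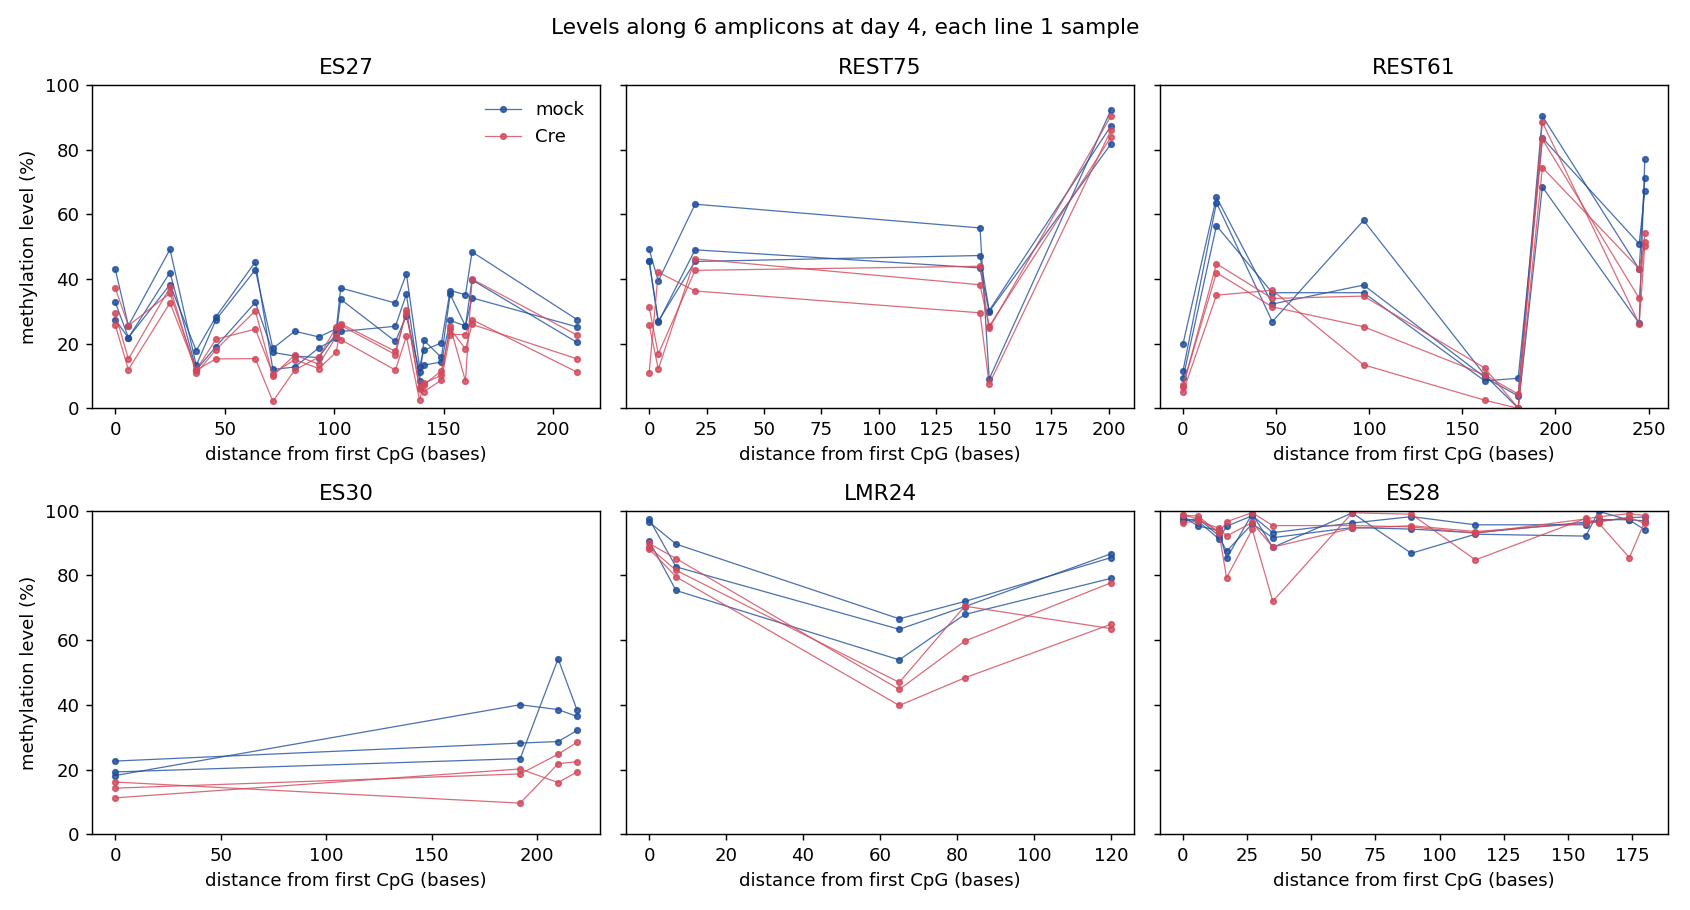
Methylation level (%) at each CpG of 6 amplicons against distance from the first measured CpG (bases), with 1 line per sample, blue for mock and red for Cre. In ES30 all Cre lines run below all mock lines at each of the 4 CpGs and in ES27 at 9 of the 20, in REST61 and REST75 they separate at some CpGs and cross at others, and in ES28 all lines stay high.

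The day 0 level and sequence features of the CpGs were set beside the change. Over the 179 CpGs chosen for a day 0 level of 10 to 90%, 37.5% of the variance of the log2 odds ratio lay between the 44 amplicons. With so few CpGs per amplicon, part of this share would arise without any amplicon effect, and that part was not estimated. The log2 odds ratio correlated with the day 0 level with r = 0.269 (Spearman 0.279), with the number of CpGs within 100 bases with r = 0.0601 and with GC content with r = 0.0555, as a description over CpGs that share amplicons and libraries. The median was -0.50 between genes (95 CpGs), -0.46 in introns (54) and -0.61 in coding exons (29). By the base before the CpG it was -0.67 for A, -0.44 for C, -0.56 for G and -0.45 for T.

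The loss at day 4 was set beside that of later days, whose samples are separate libraries. Over 345 CpGs the difference was -3.70 points at day 4 and -14.2 at day 29, so that 26.0% ± 6.48 of the day 29 difference was present (SD over the 3 Cre samples). Here and in the shares by region type the SD holds the mock mean and the day 29 difference fixed. The share was 46.6% ± 27.1 in CTCF-bound LMRs, over 3 CpGs, 38.9% ± 7.13 in ES-specific and 36.4% ± 4.91 in REST-bound LMRs, 19.4% ± 11.8 in other constitutive LMRs, 14.1% ± 2.41 in FMRs and 2.67% ± 10.7 in NP-specific LMRs. It was 20.2% ± 10.5 in UMRs, 17.9% ± 18.3 in the methylated CpG island and 7.10% ± 21.1 in the methylated UMR. These shares were not tested against each other. In ES-specific LMRs the share rests on a mock level above that of day 0.

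At day 8 the same model called 70 of 397 CpGs (17.6%) less methylated and 2 more methylated. Of the 73 CpGs lower in all Cre samples at day 4, 38 of 72 measured (52.8%) were so at day 8, as were 89 of 286 (31.1%) of the others. Among the 10 leading CpGs, 7 had all Cre samples lower at day 8, as had 144 of all 397 CpGs (20 had all higher), and 10 at day 29, as had 286 of all 384. In the wild-type line at day 4, 3 of the 10 had all Cre samples lower, 1 had all higher and 6 overlapped. Of the 73 CpGs, 13 of 72 measured (18.1%) were lower in all Cre samples of the wild-type line, as were 51 of 273 (18.7%) of the others, and 6 of the 72 and 16 of the 273 were higher in all of them. The CpG 150291065 in REST75 had 29.7% ± 5.37 after Cre and 51.2% ± 3.58 in mock at day 8, and 17.5% ± 1.94 after Cre and 49.8% ± 8.11 in mock at day 29. The CpG 153281777 in REST61 had 50.3% ± 1.85 after Cre and 52.4% ± 8.87 in mock at day 8, with overlap.

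The change of the Cre effect from day 4 to day 8 passed the interaction test at 1 of 358 CpGs (0.279%), with 34 at an unadjusted p under 0.05 and 0 called by limma on log2 odds. It was the CpG at 29516210 of chromosome 12 in REST68, an intron of Tssc1, with 43.5% ± 4.98 after Cre and 47.7% ± 1.19 in mock at day 4, and 29.1% ± 5.15 and 58.0% ± 2.95 at day 8 (SD, n = 3). The log2 odds ratio was lower at day 8 by 1.53, a value of -1.53 ± 0.26 (SE; adjusted p = 0.0269, quasi-binomial model with limma moderation). With any 1 of the 12 samples left out in turn, the call was lost in 9 cases and a call was made only without Cre day 8 replicate 2, mock day 8 replicate 2 or Cre day 4 replicate 1.

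**Figure D5:**
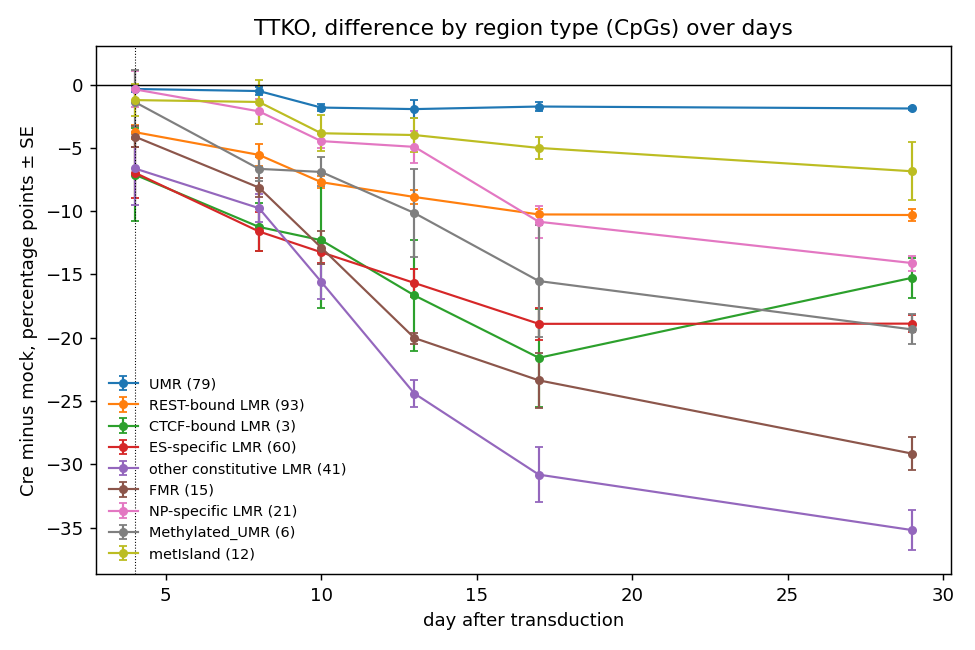
Cre minus mock difference in mean methylation (percentage points, bars are SE) by day after transduction for each region type, over the CpGs measured in all Cre and mock samples of TTKO (number in brackets), with day 4 at the dotted line. At day 4 REST-bound LMRs stand at -3.76 and FMRs at -4.11 points, and at day 29 at -10.3 and -29.2 points.

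Wild-type cells, the line with intact Tet genes, had 3 Cre and 3 mock samples of its own at day 4. Over the 345 CpGs measured in both lines the difference was -5.44 ± 1.54 points in wild type and -3.78 ± 0.896 in TTKO (SE). The interaction of Cre with line passed at 0 of 345 CpGs in the quasi-binomial model, with 28 (8.12%) at an unadjusted p under 0.05, and at 1 by limma on log2 odds, 36693887 of chromosome 10 in UMR17 near Hdac2. Without wild-type mock replicate 3, 3 CpGs passed in the quasi-binomial model, in ES28, UMR18 and REST75, and without any other single sample 0 passed. The loss was larger in wild type in 8 of 9 region types. The wild-type samples were more variable, with a median dispersion of 225 over 372 CpGs against 59.4 over 366 in TTKO. Wild-type mock samples were at 39.6%, 36.9% and 34.8% over the 345 CpGs. In CTCF-bound LMRs the difference was -15.0 ± 1.50 points in wild type and -6.89 ± 3.60 in TTKO, and in NP-specific LMRs -6.67 ± 1.67 and -0.377 ± 1.42. It was -13.7 ± 1.73 and -6.67 ± 2.55 in other constitutive LMRs and -6.60 ± 1.86 and -4.03 ± 0.600 in FMRs. ES-specific LMRs went the other way, with -3.28 ± 5.08 and -7.34 ± 1.82. The difference between the lines was not tested per region type.

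Capture sequencing of TTKO cells gave a second reading of 239 of the 366 CpGs, as 1 value per time with the 3 replicates joined and without mock samples, so it has no replicate check. The mean level was 26.9% at day 0 and 25.0% at day 4 after Cre. The amplicons gave 31.4% and 28.0% at the same CpGs. By capture, REST-bound LMRs went from 19.0% to 17.0%, ES-specific LMRs from 31.2% to 28.5% and other constitutive LMRs from 53.3% to 49.0%. CTCF-bound LMRs went from 33.8% to 31.2%, UMRs from 2.50% to 2.00% and the methylated CpG island from 92.5% to 90.1%. Capture was higher at day 4 in FMRs, from 75.8% to 78.5% over 2 CpGs, where the amplicons went from 84.7% to 80.7%. The 5 CpGs of the methylated UMR went from 84.4% to 85.8%.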

How the data were processed

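Genomic DNA was bisulfite converted, amplified at selected regions and sequenced on a MiSeq. The authors trimmed the last 100 bases, used Rbowtie within QuasR for alignment to mm9, and called levels with AmpliconBiSeq. Coverage was deposited as a count of reads per CpG and sample, and the methylation level as a fraction, with levels under 100 reads left empty and CpGs with missing values at day 0 or more than once removed. Capture levels were deposited as a percent per CpG and time with replicates joined. For the wild-type time course the authors describe scaling Cre samples to mock before inferring rates, and the deposited levels used here are whole read fractions. The authors' inferred rates, their confidence and TET activity were also deposited and were not used. Coverage times level was whole, within 0.01, at 100% of values.

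Methylated and unmethylated reads, with 0.5 added to each, entered a quasi-binomial logistic fit for each CpG, with dispersion moderated by limma 3.58.1 in R 4.3.3 and not under 1. Tests were two-sided with Benjamini-Hochberg adjustment at 0.05, and the code was tested on simulated data. Sample means were compared by exact permutation in scipy 1.17.1 with python 3.11.15, numpy 2.4.6, pandas 2.3.3 and matplotlib 3.10.9. CpGs were placed on NCBIM37 and GENCODE M1. The sequence and position of 1 amplicon are not reported here. Samples were grouped by their labels, and 0 sample columns were left unmapped. Region types are those of the deposited region list. Named CpGs were to be the 10 with the largest difference past the threshold. As fewer than 5 passed, they were the 10 with the smallest unadjusted p, with the 5 of smallest log2 odds ratio at 20 to 80% at day 0, and per region type the amplicons of largest and smallest relative loss with at least 10% in mock. The comparison, the region lists and the tests were chosen with earlier results of these data known. Alternatives were another dispersion, limma on log2 odds or on mean levels, at least 1000 reads, equal weight per amplicon, day 0 as control, a replicate block and leaving out each sample.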

Additional observations from a re-analysis of the deposited data

Results flagged for a closer look

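1 result stood out, because the effect of Cre differed between days 4 and 8 by a test of the difference itself. At 29516210 of chromosome 12 (REST68, Tssc1) the Cre effect, as a log2 odds ratio, changed by -1.53 ± 0.26 (SE) from day 4 to day 8, with adjusted p = 0.0269 in the quasi-binomial model with limma moderation. It was 1 of 358 CpGs tested, limma on log2 odds called none, and leaving out 1 of the 12 samples at a time left no call in 9 cases. Mock rose from 47.7% to 58.0% between the days while Cre went from 43.5% to 29.1%.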

How the results depend on the processing

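With a replicate block (same-numbered samples as pairs) the counts were 0 CpGs less and 0 more methylated, 0 amplicons, 1 CpG for day 8 against day 4 and 0 for wild type against TTKO, and the mean difference over all CpGs remained -3.68 points with an exact sign-flip p of 0.25, the smallest that 3 pairs allow. The deviations of same-numbered samples correlated with 0.221, -0.0402 and 0.0751, and not every sample correlated best with its own number, so the numbers were not taken to pair samples. Dispersion over all TTKO samples raised the counts to 8 CpGs and 14 amplicons, and limma on the mean level to 2 amplicons. The CpG whose effect differed between days 8 and 4 was not called by limma on log2 odds (0), and leaving out each sample gave 0 to 1. For wild type against TTKO, limma on log2 odds called 1 CpG and leaving out each sample 0 to 3, the 3 without WT mock replicate 3. The NP-specific difference turned to 0.493 points without Cre replicate 1 and 0.588 without mock replicate 3, and the methylated UMR's to 0.0573 against day 0 and 0.909 without Cre replicate 3, and the cause was not tested. Over samples left out, NP-specific values ran from -1.35 to 0.588 and those of the methylated UMR from -3.02 to 0.909. The other 201 values under alternatives kept their direction and their side of the threshold, or moved by less than the spread of replicates. The mean difference ranged from -4.53 to -3.14 points and the share of the day 29 difference from 22.4% to 28.7% without single replicates. With 3 samples a group the exact tests cannot go below 0.1, so their p-values say nothing about stability.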
